A study of Homo sapiens with 2 samples.

Results

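The protein folding and quality control machinery of the endoplasmic reticulum (ER) was followed in the human colorectal adenocarcinoma cell line SW480 through 39 genes chosen by name: the sensors of the unfolded protein response (UPR), ER chaperones, protein disulfide isomerases, factors of ER-associated degradation (ERAD), and components of the translocon and of export from the ER. Probe sets carrying exactly 1 gene symbol were found for 36 of the 39, out of 18417 genes on the array. PDIA3 and TXNDC5 had only probe sets assigned to several genes, SEC61G had none under its symbol, and these 3 were not analysed here. Total RNA was hybridised to 2 Affymetrix arrays, 1 from SW480 cells stably transfected with the TFAP2E coding sequence in the pTarget expression vector and 1 from SW480 cells with the empty vector. Both populations had been grown under Geneticin for weeks and cloned, and the labels do not say whether an array holds 1 clone or several. A difference between these arrays can therefore be a difference between clones, which cannot be told apart from the transgene.

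The ER folds proteins that are bound for membranes and for secretion. When unfolded proteins accumulate in its lumen, the membrane sensors IRE1 (encoded by ERN1), PERK (EIF2AK3) and ATF6 start the UPR. IRE1 splices the XBP1 messenger RNA into the form that encodes an active transcription factor, ATF6 is cut to release another, and PERK phosphorylates eIF2alpha, which lowers general translation and favours ATF4. ATF6 and XBP1 raise chaperone and ERAD genes through the ER stress response elements in their promoters, whereas ATF4 acts mainly on amino acid and redox genes and on DDIT3 (CHOP). Intestinal epithelium depends on this system, because its secretory cells make large amounts of mucin and other glycoproteins.

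The promoter elements are shown first, because the chaperone and ERAD genes below are later compared by them. In RefSeq promoters of build GRCh38.p14, each 300 bases long from 250 before to 50 after a gene's start, 33 of the 36 genes were represented, by 41 promoters (DERL1, DERL3 and SEC24D were not matched). The ER stress response element ERSE, searched on both strands as CCAAT and CCACG with 9 bases between them, stood in 10 of these 41 promoters (24.4%) and in 0.0769% of all 35116 promoters. ERSE-II, searched on both strands as ATTGG and CCACG with 1 base between them, stood in 3 of the 41 and in 0.0541% of all promoters. The 2 motifs did not occur in the same gene here. ERSE was found in 8 genes, HSPA5, HSP90B1, CALR, CANX, CRELD2, PDIA6, XBP1 and SERP1, and ERSE-II in HYOU1, SDF2L1 and HERPUD1. The CANX promoters overlap and hold the same element, so the 10 promoters are not independent. The genes were chosen by name from a system that works through these elements, so their higher share follows from that choice. A match is a description of the letters and does not show that a factor binds there. The 5 genes with ERSE whose flanking bases overlap no annotated gene are printed 5′ to 3′ in the direction of the gene, with the element in capitals and at most 20 bases on either side. The element lies in the reverse direction in CALR, CRELD2 and SERP1.
HSPA5, chr9:125241371-125241429, minus strand: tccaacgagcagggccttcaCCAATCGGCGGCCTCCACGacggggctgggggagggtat
XBP1, chr22:28800583-28800641, minus strand: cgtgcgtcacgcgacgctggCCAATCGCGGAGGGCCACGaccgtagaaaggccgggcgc
CALR, chr19:12938364-12938422, plus strand: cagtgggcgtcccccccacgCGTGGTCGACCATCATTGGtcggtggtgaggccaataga
CRELD2, chr22:49918534-49918592, plus strand: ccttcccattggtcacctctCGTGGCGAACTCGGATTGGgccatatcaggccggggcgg
SERP1, chr3:150546690-150546746, minus strand: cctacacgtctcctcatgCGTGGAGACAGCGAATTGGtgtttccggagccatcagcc

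The 3 genes with ERSE-II are printed in the same way. HYOU1 holds the element at 2 positions, both inside the printed stretch, and it lies in the reverse direction in HYOU1 and SDF2L1.
HERPUD1, chr16:56932005-56932055, plus strand: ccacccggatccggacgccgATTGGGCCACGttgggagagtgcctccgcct
HYOU1, chr11:119057254-119057410, minus strand: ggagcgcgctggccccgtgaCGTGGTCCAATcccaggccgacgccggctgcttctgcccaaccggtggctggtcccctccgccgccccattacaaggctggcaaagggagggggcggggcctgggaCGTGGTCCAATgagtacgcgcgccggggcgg
SDF2L1, chr22:21642094-21642144, plus strand: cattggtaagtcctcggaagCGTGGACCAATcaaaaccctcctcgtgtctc

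Values are on the log2 scale, produced by the authors with RMA, and differences are given as the TFAP2E array minus the empty vector array. With 1 array per group no test or error can be given, and no difference has a replicate check. A gene counted as measured when its higher value reached 5.55, the median of all probe sets, which left 11548 genes, among them all 36, each at or above 5.55 on both arrays. Over these 11548 genes the median difference was 0.04, the standard deviation 0.219, and 95% of differences lay between -0.37 and 0.47. The TFAP2E probe set itself read 6.81 and 6.77 (difference 0.04), so the introduced gene is not seen on the array and the directions rest on the labels. Of 12 colorectal epithelial markers 9 were measured, with EPCAM at 11.14 and 11.20 and KRT18 at 12.55 and 12.57, while KRT20, CDH17 and GPA33 were dim. Other members of this list were unequal between the arrays: KRT8 and KRT19 differed by -0.20 each, CDH1 (E-cadherin) read 6.38 with TFAP2E and 7.08 with the empty vector (-0.71), and VIL1 (villin) read 6.22 and 4.94 (1.28) and was dim with the empty vector. The part of these epithelial differences in the results below was not tested. Markers of goblet cells (0 of 7 measured), plasma cells (1 of 7), fibroblasts (2 of 7), endothelium (1 of 6) and leukocytes (2 of 6) were mostly dim. The measured leukocyte markers differed in opposite directions, CD68 by 0.57 and CD14 by -0.19, and PTPRC, CD3E and MS4A1 were dim on both arrays; the part of such cells in the results was not tested.

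Taken as a group, the 36 ER genes lay where the other genes lay. Their median difference was 0.06 against 0.04 for all measured genes, and 26 of 36 (72.2%) were above 0, where 59.2% of all genes were. Against the median of all genes instead of 0, 19 of 36 were higher, where 50% is given by construction. At least 1.2-fold higher were 4 of 36 (11.1%), PDIA5, ERN1, HERPUD1 and DNAJC3, beside 12.8% of all measured genes. At least 1.2-fold lower were 0 of 36, beside 6.05% of all genes. PDIA5 alone passed 1.5-fold (2.78% of the 36, beside 0.892% of all genes), none was 1.5-fold lower, beside 0.606%, and none of the 36 passed 2-fold, beside 0.199% of all genes. The share at least 1.2-fold higher lies near the background and is no result about these genes. The 39 names mix genes under different branches of the UPR, and they are taken role by role below.

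**Figure D1:**
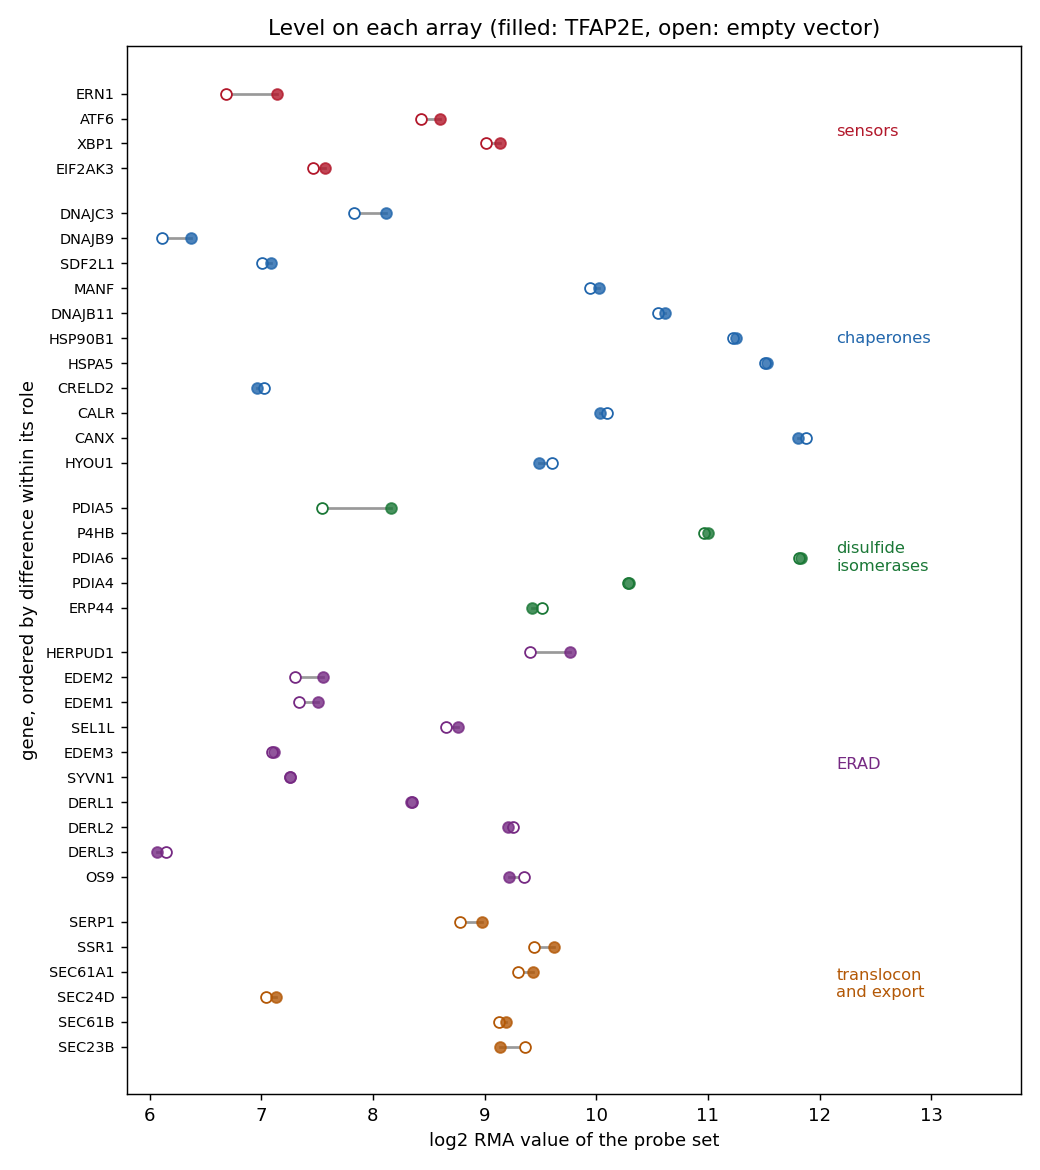
Log2 RMA value of each of the 36 genes (horizontal axis) on the TFAP2E array (filled points) and on the empty vector array (open points), grouped by role and ordered by difference. PDIA5, ERN1, HERPUD1 and DNAJC3 have the widest gaps with the TFAP2E array higher, SEC23B the widest with it lower, and for HSPA5, HSP90B1, PDIA4 and PDIA6 the points coincide. Positions along the axis are not comparable between genes, because each probe set has its own response.

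All 4 genes of the sensor group read higher on the TFAP2E array, where 59.2% of all measured genes did. Their median difference was 0.15, against 0.04 for all measured genes. ERN1, the kinase and endoribonuclease that splices XBP1, read 7.14 with TFAP2E and 6.69 with the empty vector. It was 1.37-fold higher (log2 difference 0.45), and 2.71% of all measured genes had a larger positive difference. ATF6, the membrane-bound factor released by proteolysis, read 8.60 and 8.43. XBP1, the target of IRE1 splicing, read 9.14 and 9.01, and the kinase EIF2AK3 read 7.57 and 7.46. Only ERN1 passed 1.2-fold, and the other 3 differed by 0.11 to 0.17, within the bulk of all genes. The XBP1 value is 1 number per array and does not separate spliced from unspliced transcript. No sensor changed sign under the 3 alternative scalings (median centring, quantile, loess), where ERN1 lay between 0.43 and 0.48. The other alternatives cannot move the value of a gene with 1 probe set.

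The chaperones, which make up the largest group, were close to equal on both arrays. Of 11 genes 7 were higher (63.6%, beside 59.2% of all measured genes) and 4 lower, and the median difference was 0.02. By less than 0.1 differed 8 of 11, where 40.2% of all measured genes did. HSPA5 (BiP), the ER Hsp70 that also holds the sensors inactive, read 11.53 and 11.51 (difference 0.02). HSP90B1 (GRP94), the ER Hsp90, read 11.25 and 11.23 (difference 0.02). The lectin chaperones of newly made glycoproteins were slightly lower, calnexin (CANX) at 11.81 and 11.88 and calreticulin (CALR) at 10.03 and 10.10, with differences of -0.07 and -0.06. HYOU1, an Hsp110-like nucleotide exchange factor for BiP, read 9.49 and 9.60 and had the lowest difference of the group, -0.11. The 3 secreted or luminal UPR products MANF (0.07), SDF2L1 (0.08) and CRELD2 (-0.06) also lay near 0. Among the J-domain cochaperones of BiP the values diverged. DNAJC3 (p58IPK), which also inhibits PERK, read 8.12 with TFAP2E and 7.83 with the empty vector and was 1.22-fold higher (0.29), which fell to 0.25, under the 1.2-fold rule, after quantile normalization and with the loess trend removed. DNAJB9 (ERdj4), which restrains IRE1, read 6.37 and 6.11, just short of the 1.2-fold rule (1.198-fold). DNAJB11 (ERdj3) read 10.62 and 10.56, with a difference of 0.06. The median of this group turned slightly negative, to -0.01, when the loess trend was removed, so no direction is given for it.

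Protein disulfide isomerases form and rearrange the disulfide bonds of secreted proteins. Of the 5 measured, 4 lay within 0.1 of 0, where 40.2% of all measured genes lay, and PDIA5 stood apart from the other isomerases. PDIA5, one of the less studied isomerases, read 8.16 with TFAP2E and 7.54 with the empty vector. It was 1.54-fold higher (log2 difference 0.62), the largest difference of the 36 genes, and 0.727% of all measured genes lay above it. P4HB (PDI), the main isomerase and also a subunit of prolyl 4-hydroxylase, read 11.00 and 10.97, with a difference of 0.04, and its second probe set differed by -0.03. PDIA6 (11.84 and 11.82, difference 0.02) and PDIA4 (10.30 and 10.28, difference 0.01) were equally near 0. ERP44, which retains client proteins in the early secretory pathway, read 9.42 and 9.51. The group's median of 0.02 became -0.01 with the loess trend removed, whereas PDIA5 stayed between 0.58 and 0.65 in each of 7 alternatives.

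ERAD sends misfolded proteins back to the cytosol for degradation by the proteasome. Of its 10 genes 6 were higher (60%, beside 59.2% of all measured genes) and 4 lower, with a median difference of 0.01. The median was below 0 after quantile normalization and after removal of the loess trend. It was 0.10 over the 7 genes left by a filter at the 75th percentile. HERPUD1, a membrane protein that organises the HRD1 ligase complex, read 9.76 with TFAP2E and 9.40 with the empty vector. It was 1.28-fold higher (log2 difference 0.36), and 5.78% of all measured genes lay above it. The mannosidase-like factors that mark glycoproteins for disposal were unequal, EDEM2 at 7.55 and 7.30 (difference 0.25), EDEM1 at 7.51 and 7.34 (0.17) and EDEM3 at 7.11 and 7.10 (0.01). SYVN1 (HRD1), the ubiquitin ligase, read 7.26 with and without TFAP2E, while its partner SEL1L read 8.76 and 8.66. The derlins, channel components, lay just below 0, DERL1 at -0.01, DERL2 at -0.04 and DERL3 at -0.07. OS9, the lectin that delivers substrates to the ligase, read 9.22 and 9.36, the lowest difference of this group at -0.13. HERPUD1 was the only gene of the 10 past 1.2-fold (10%, beside 12.8% of all genes), a share near the background. SYVN1, the ligase it works with, differed by 0.01, and by -0.03 to 0.03 over the alternatives.

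In the translocon and export group 5 of 6 genes were higher, where 59.2% of all measured genes were. The median of the group was 0.11, against 0.04 for all measured genes. The channel subunits SEC61A1 (9.44 and 9.30) and SEC61B (9.19 and 9.13), SSR1 of the translocon-associated complex (9.62 and 9.44) and SERP1, a small protein that stabilises membrane proteins during stress (8.98 and 8.78), differed by 0.06 to 0.20. The COPII coat genes went in opposite directions. SEC24D, which selects cargo, read 7.13 and 7.04. SEC23B, its partner in the inner coat, read 9.14 with TFAP2E and 9.36 with the empty vector, the lowest difference of all 36 genes at -0.22. It passed 1.2-fold lower after quantile normalization (-0.27) and after removal of the loess trend (-0.27).

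**Figure D2:**
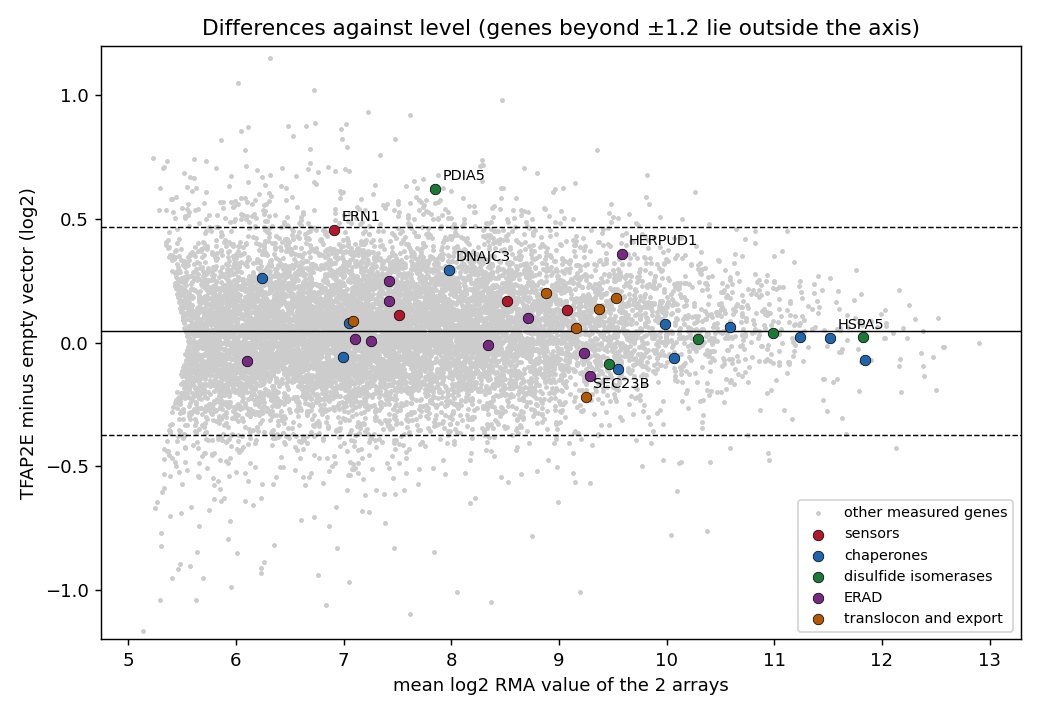
Difference between the arrays (vertical axis, log2) against the mean log2 value of both arrays (horizontal axis) for all measured genes (grey) and the 36 ER genes (coloured by role). The solid line is the median of all genes, 0.04, and the dashed lines at -0.37 and 0.47 hold 95% of them. PDIA5 lies above the upper line and ERN1 just below it, and at high levels the coloured points lie close to 0.

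The bright probe sets of the group lay near 0. This was noticed after the values were seen, and the limit of 10 on the mean log2 value was set then. At or above 10 there were 8 of the 36 genes, HSPA5, HSP90B1, CALR, CANX, DNAJB11, PDIA4, PDIA6 and P4HB, and 8 of 8 differed by less than 0.1, between -0.07 and 0.06. Among all 510 measured genes at that level 46.9% differed by less than 0.1, and their standard deviation was 0.174. Of the 15 genes between 8 and 10, 5 differed by less than 0.1, and of the 13 below 8, 6 did. The corresponding shares of all measured genes were 40.9% and 39.5%. Bright probe sets varied less in general. The share close to 0 was higher among these 8 than among all 510 genes at that level, which include them. CALR passed 0.1 after quantile normalization (-0.12) and with the loess trend removed (-0.11), so 8 of 8 does not hold under those scalings.

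The genes with an exact match to an ER stress response element can be read against those without one in the window. A near match, such as that to ERSE-II in SEL1L, counts as none, so genes without a match may still hold an element. Of the 11 genes with ERSE or ERSE-II 7 were higher and 4 lower, where 59.2% of all measured genes were higher. Their median difference was 0.02, with a range of -0.11 to 0.36. The 22 genes with neither had a median of 0.09. Over 7 alternatives, applied to these medians after the values were seen, the first ranged from -0.01 (loess trend removed) to 0.05 and the second from 0.04 to 0.11. HERPUD1 was the only 1 of the 11 past 1.2-fold, and the next were SERP1 at 0.20 and XBP1 at 0.13. Of the 22 without a match 3 passed 1.2-fold, and 12.8% of all measured genes did. These counts lie near the background and are no result about the element. Of the 4 genes past 1.2-fold, PDIA5, ERN1 and DNAJC3 had no exact match to either element in the window. Outside the 36 genes, 19 measured genes had ERSE or ERSE-II. Of these 9 were higher, where 59.2% of all measured genes were, and their median was -0.02 against 0.05 for the 9231 without. The 19 ran from NAV2 (-0.41) to EIF2A (0.32). Among them were FICD, which modifies BiP (-0.11), the oxidase ERO1B (0.01) and NUCB1 (-0.23). Shared promoters were among them: EIF2A (0.32) shares its element with SERP1, and ALG12 (-0.13) shares its with CRELD2.

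**Figure D3:**
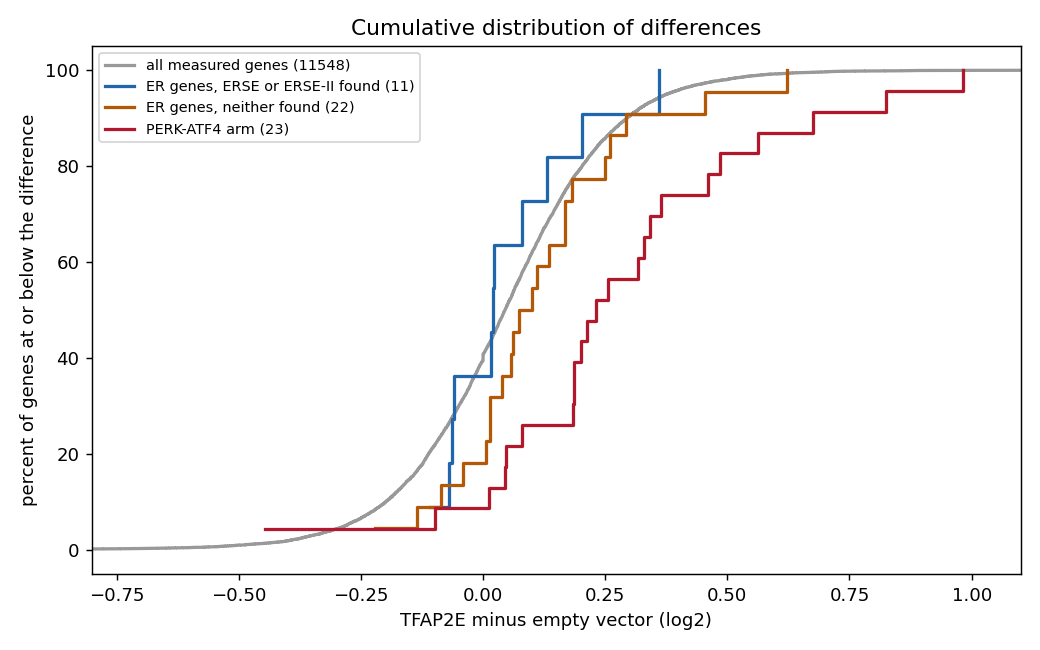
Percent of genes (vertical axis) at or below each log2 difference (horizontal axis) for all 11548 measured genes, the 11 ER genes with ERSE or ERSE-II, the 22 with neither, and the 23 measured genes of the PERK-ATF4 arm. The curve of the 11 genes rises steeply near 0 and that of the PERK-ATF4 arm lies to the right of the others except at its lowest gene.

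The promoters of the 2 genes with the largest differences are shown for comparison, 200 bases upstream of the start and 5′ to 3′ in the direction of the gene. Capitals mark GCCNNNGGC, a consensus of the AP-2 family to which TFAP2E belongs. It reads the same on both strands and shares no letters with ERSE here. ERN1 has 3 such matches and PDIA5 none. The same letters stood in 11 of the 41 promoters (26.8%) and in 23.2% of all promoters, so that their presence is common. Of the 33 genes 9 had a match, with a median difference of 0.02, and the 24 without had 0.07. Among the other measured genes the median was 0.04 for the 3745 with a match and 0.05 for the 5505 without.
PDIA5, chr3:123066825-123067024, plus strand: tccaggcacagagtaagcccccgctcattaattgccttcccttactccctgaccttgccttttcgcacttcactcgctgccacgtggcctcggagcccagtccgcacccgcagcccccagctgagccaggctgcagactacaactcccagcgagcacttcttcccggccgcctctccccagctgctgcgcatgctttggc
ERN1, chr17:64130145-64130344, minus strand: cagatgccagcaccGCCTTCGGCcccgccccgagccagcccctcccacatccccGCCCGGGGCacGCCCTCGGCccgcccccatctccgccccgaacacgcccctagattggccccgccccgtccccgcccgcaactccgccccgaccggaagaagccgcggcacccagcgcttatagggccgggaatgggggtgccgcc

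A further promoter motif, UPRE, the XBP1 and ATF6 site searched as TGACGTGG on both strands, occurred only in HYOU1 among the 33 genes, where it overlaps an ERSE-II, and in 0.729% of all promoters. For the amino acid response element bound by ATF4, only the exact letters TGATGNAAT were searched, on both strands. They occurred in 0 of the 33 and in 0.991% of all promoters. The same letters also occurred in 0 of the 20 measured genes of the PERK-ATF4 arm (described below) that had a promoter. Sites with other letters were not searched, so 0 does not show that these genes lack the element. The search with these letters in this window therefore does not separate the ER genes from the genes of that arm.

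Other genes of the pathway were taken from lists chosen by function, with earlier results of these data known. The PERK-ATF4 arm differed from the 36 genes in its values. Of its 23 measured genes 21 were higher (91.3%, beside 59.2% of all genes), with a median of 0.23. At least 1.2-fold higher were 10 (43.5%, beside the 12.8% of all genes), and 1 was at least 1.2-fold lower (4.35%, beside 6.05%). ATF4 lies downstream of PERK but also of kinases that sense amino acids, haem and viral RNA. DDIT4, an inhibitor of mTORC1, read 8.96 with TFAP2E and 7.98 with the empty vector (0.98). DDIT3 (CHOP), a transcription factor of prolonged ER stress, read 7.89 and 7.07 (0.82). ASNS, asparagine synthetase, read 10.16 and 9.48 (0.68). At the other end were ATF5 at 0.01 and the subunits of the large neutral amino acid transporter, SLC3A2 at -0.10 and SLC7A5 at -0.45. The high values of DDIT3, DDIT4 and ASNS were known when the list was written, so that this count is not independent of them. The median stayed between 0.19 and 0.26 in each of 7 alternatives. The difference between this list and the 36 genes was not tested, since each has 1 array per group.

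Upstream of ATF4, the eIF2alpha kinases other than PERK, the eIF2 and eIF2B subunits and the phosphatase genes had a median of 0.01. Of these 15 genes 9 were higher (60%, beside 59.2% of all genes) and 1 passed 1.2-fold (6.67%, beside 12.8% of all genes). EIF2B3 (0.29), EIF2B5 (0.25) and the haem-regulated kinase EIF2AK1 (0.15) were highest, and PPP1R15B (-0.07), EIF2B1 (-0.05) and EIF2S1 (-0.02) lowest. Relatives of the sensors, their proteases and partners of IRE1 were higher in 11 of 13 cases (84.6%, beside 59.2% of all genes), with a median of 0.14. At least 1.2-fold higher were 6 (46.2%, beside 12.8% of all genes). Earlier results of these data were known when the list was chosen, so this count may not be independent of them. CREB3L3 and CREB3L4 are among these 6 and reached 5.55 only on the TFAP2E array, so that the filter adds to the count. Of the 11 genes at or above 5.55 on both arrays, 9 were higher and 4 passed 1.2-fold, with a median of 0.11. The median of the list was 0.08 over the 7 genes left by a filter at the 75th percentile. ZBTB8OS (archease), a cofactor of the ligase that joins the XBP1 exons, read 6.19 and 5.71 (0.49). NFYA, a subunit of the factor that binds the CCAAT letters of ERSE, read 7.81 and 7.50 (0.32), and CREB3L3 read 5.82 and, dim with the empty vector, 5.52 (0.30). The lowest were MBTPS1, the site-1 protease that cuts ATF6, at -0.16, MAP3K5 at 0.00 and CREB3 at 0.02.

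The neighbouring steps of the secretory pathway were mixed. Other oxidative folding genes had 13 of 18 higher (72.2%, beside 59.2% of all genes), with a median of 0.09. Past 1.2-fold were 16.7%, near the 12.8% of all genes. TMX4 (0.50), GPX8 (0.40) and ERP29 (0.31) were highest and QSOX1 (-0.21), GPX7 (-0.17) and DNAJC1 (-0.13) lowest. Genes of glycan trimming and the calnexin cycle were lower in 7 of 11 cases, where 39.5% of all measured genes were lower. Their median was -0.07 and stayed below 0 in each of 7 alternatives. The highest were the lectins ERLEC1 (0.18), LMAN2 (0.15) and LMAN1 (0.10), and the lowest the mannosidases MAN1B1 (-0.17) and MAN1A2 (-0.14) and the folding sensor UGGT2 (-0.17). None of these 11 passed 1.2-fold in either direction, beside 12.8% of all measured genes higher and 6.05% lower.

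Other ERAD genes had 13 of 24 higher (54.2%, beside 59.2% of all genes) and a median of 0.04. They ran from NGLY1 (0.36), HERPUD2 (0.30) and SELENOK (0.28) to UBXN4 (-0.17), SEL1L3 (-0.16) and NPLOC4 (-0.15). Other genes of the translocon, the signal recognition particle, signal peptidase and oligosaccharyltransferase had 20 of 30 higher (66.7%, beside 59.2%) and a median of 0.04. SSR3 (0.27), SRP19 (0.24) and DAD1 (0.21) were highest there, and TRAM2 (-0.39) and the catalytic oligosaccharyltransferase subunits STT3A and STT3B (-0.16 each) lowest. Both medians turned negative without the loess trend. Other COPII genes had 12 of 15 higher (80%, beside 59.2% of all genes), a median of 0.07, and 3 past 1.2-fold (20%, beside 12.8% of all genes). SEC13 of the outer coat read 8.40 and 7.81 (0.58), TFG 8.63 and 8.18 (0.45) and MCFD2 9.48 and 9.19 (0.29), with SEC16A (-0.13), MIA2 (-0.06) and SAR1A (-0.04) lowest.

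**Figure D4:**
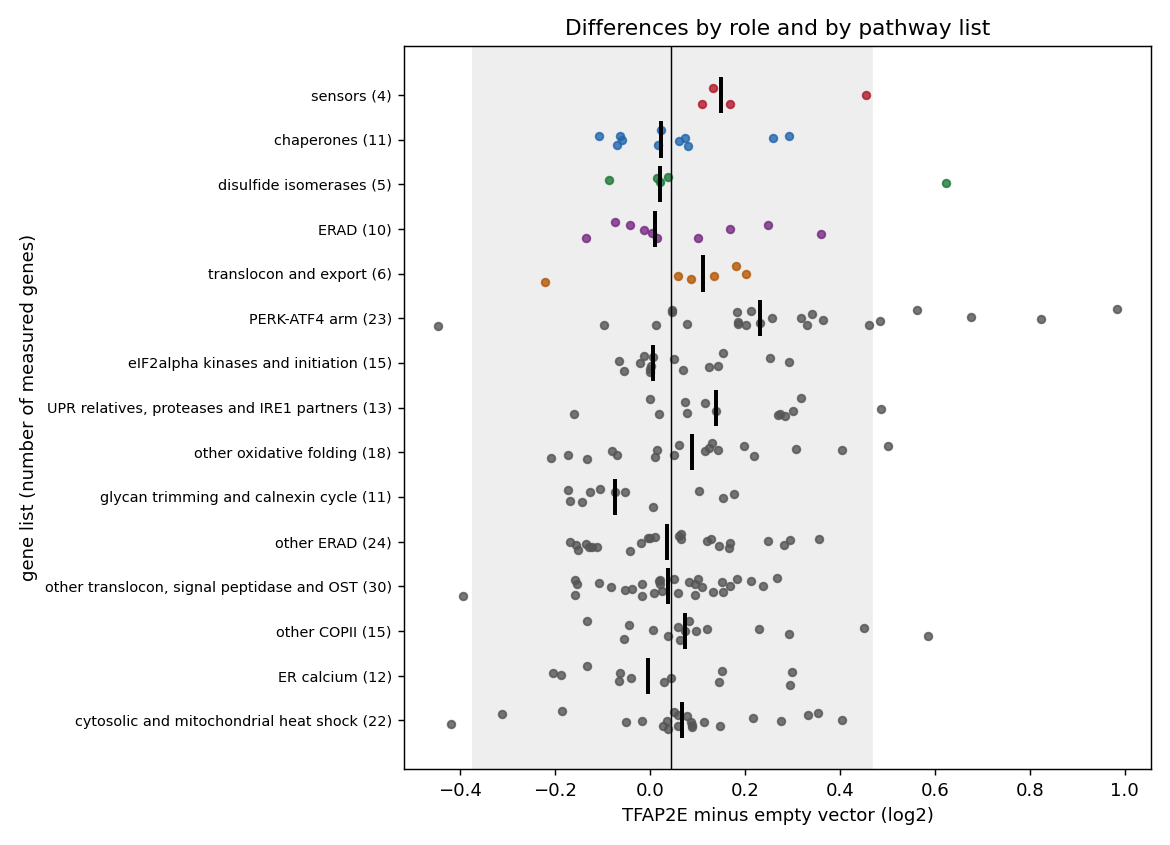
Log2 difference of each measured gene (points, spread vertically at random) by role for the 36 ER genes (coloured) and by pathway list (grey), with the number of measured genes in parentheses. Short bars are medians, the long line is the median of all genes, 0.04, and the shaded band from -0.37 to 0.47 holds 95% of all measured genes. Most points lie inside the band, the PERK-ATF4 arm extends farthest to the right of it, and PDIA5 is the only one of the 36 genes outside it.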

How the data were processed

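The deposited table holds log2 values that the authors obtained with RMA (background correction, a common distribution across arrays, summary of probes), per the submitters' processing notes. Neither the RMA version nor a genome build was given in the sources used here. Precision is limited by the number of arrays, 1 per group. Of 33297 probe sets, 19460 had 1 gene symbol in the platform annotation, 1754 several and 12083 none. Current symbols came from RefSeq by Entrez identifier (assembly GRCh38.p14), where 19429 of the 19460 were found. A gene with several probe sets was read from that with the highest mean. Filtering at 5.55, the median of all values, left 11548 of 18417 genes.

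The 1.2-fold rule equals 0.26 on the log2 scale. The groups came from the labels. The gene lists and members were chosen with earlier results of these data known. All 36 genes with a probe set are named, and of each pathway list the 3 highest and 3 lowest. The alternatives were 3 scalings (median centring, quantile, loess with span 0.3), 2 filters, the mean of probe sets, platform symbols as given and a 1.5-fold rule. Python 3.11.15, pandas 2.3.3 and statsmodels 0.14.6 were used, and the scripts were tested on simulated data. Promoter sequences are from RefSeq, and protein sequences were not used here.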

Additional observations from a re-analysis of the deposited data

How the results depend on the processing

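Of the 36 genes, 4 were at least 1.2-fold higher. A 1.5-fold rule gave 1, which follows from the stricter rule, and the other alternatives 3 to 6. The count at least 1.2-fold lower, 0, became 1 (SEC23B) after quantile normalization and 1 with the loess trend removed. The same scalings put DNAJC3 below the rule (0.25 in both), and centring put DNAJB9 (0.29) and EDEM2 (0.27) above it. None of the 36 reached 2-fold in any of 7 alternatives. The number of the 36 above 0, 26, ranged from 20 to 27, and that above the median of all genes, 19, from 14 to 20. The median of the 36 ranged from 0.01 to 0.09 and that of all genes from 0.01 to 0.07. Of 252 gene values under the alternatives many could not move, because the filters and the platform symbols leave a gene's value as it is. Only the 3 scalings could move it and, for P4HB, the mean of probe sets. Of the 252, 11 changed sign, all of them in 7 genes near 0 (DERL1, EDEM3, HSP90B1, HSPA5, PDIA4, PDIA6 and SYVN1). No value moved by more than 0.054. The cause of these changes was not tested. RMA sets the probes of both arrays to a common distribution before their summary, so a shift of all transcripts would mostly be removed. The deposited values are not fully alike, with medians over all probe sets of 5.54 (TFAP2E) and 5.56 (empty vector). No paired analysis was possible because only 1 array represents each group.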

Other observations

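Chaperones outside the ER and ER calcium genes were also read. Of 22 measured genes of the cytosolic and mitochondrial heat shock list 17 were higher on the TFAP2E array (77.3%, beside 59.2% of all genes). Their median was 0.07, and 4 passed 1.2-fold higher (18.2%, beside 12.8% of all genes) and 2 lower (9.09%, beside 6.05%). The small heat shock protein HSPB1 read 11.02 with TFAP2E and 10.62 with the empty vector (0.40), its regulator HSF1 differed by 0.35 and the mitochondrial Hsp90 TRAP1 by 0.33. The lowest were HSPA2, a tissue-restricted Hsp70, at -0.42, the mitochondrial cochaperonin HSPE1 at -0.31 and DNAJB6 at -0.19.

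ER calcium genes divided evenly, 6 of 12 higher (50%, beside 59.2% of all genes), with a median of -0.01 that was above 0 under 3 of 7 alternatives. The calcium-binding proteins CALU (0.30) and RCN2 (0.30) and the channel TMCO1 (0.15) were highest. The calcium pumps ATP2A3 (-0.20) and ATP2A2 (-0.19) and the calcium sensor STIM2 (-0.13) were lowest.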
